A study of Homo sapiens with 1 sample.

Results

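Annotated microRNAs (miRNAs) whose origin has been doubted, as possible pieces of transfer or small nuclear RNA, gave some of the strongest signals in the colorectal carcinoma cell line DLD-1. The group held 9 human miRNAs, listed by name: hsa-miR-7975, hsa-miR-7977, hsa-miR-4454, hsa-miR-1260a, hsa-miR-1260b, hsa-miR-1246, hsa-miR-1290, hsa-miR-4286 and hsa-miR-5100. Total gene signal is the sum, made by the scanner software, over the probes of a miRNA. The software counts a member probe at 0.183 times its mean spot signal (median over their probes). Totals and spot signals are therefore on different scales. The members were selected on their total gene signal on this array, together with their doubtful origin. Of these, 8 had spots on the array, out of 2549 miRNAs in all, while for miR-4454 the sequence is described and its level was not analysed here. Since that signal helped to choose them, their levels are a description and carry no test. The array (n = 1) carried RNA of cells transfected with a control siRNA, labelled si-NC. The study set these cells against cells depleted of circLONP2, a circular RNA of the LONP2 gene, and the knockdown array was not analysed here. No comparison between groups was therefore made, and every error below is technical, either the scatter of replicate spots or the error that the scanner software reports.

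A conventional miRNA is cut from a hairpin precursor, first by Drosha with DGCR8 and then by Dicer, and is loaded into an Argonaute protein. Transfer RNAs (tRNAs), which carry amino acids to the ribosome, and small nuclear RNAs (snRNAs), which build the spliceosome, are far more abundant in a cell and also break into short pieces. Every mature human tRNA ends in CCA, letters that are added to its 3′ end after transcription. A database entry for a miRNA can therefore hold a sequence that other RNAs also carry. MiR-1246 is the best known case among the members, since it has been traced to U2 snRNA, a core part of the spliceosome.

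The mature sequences are shown first because several comparisons below are of their letters. They were compared with each other and with other miRNAs, and no tRNA or snRNA sequence was used here, so a resemblance to those RNAs was not tested. The sequences are from RefSeq on GRCh38.p14, which held 7 of the 8 measured members, and also miR-4454. Capitals mark the seed, bases 2 to 8 from the 5′ end, through which a miRNA pairs with its targets.
miR-7975: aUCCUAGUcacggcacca
miR-7977: uUCCCAGCcaacgcacca
miR-4454: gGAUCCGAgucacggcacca
miR-1260a: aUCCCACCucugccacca
miR-1260b: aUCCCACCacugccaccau
miR-1246: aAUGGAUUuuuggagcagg
miR-1290: uGGAUUUUuggaucaggga
miR-5100: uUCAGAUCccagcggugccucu

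Only miR-1260a and miR-1260b shared a seed with another human miRNA of the table, and each shared it with the other. Over 18 aligned bases these miRNAs differed by 1, U9A, counted from the 5′ end of miR-1260a with its base written first. MiR-7975 and miR-4454 were identical at 17 of 18 aligned bases and differed by U5G, counted along miR-7975, so their seeds differ although their 3′ parts match. MiR-1246 and miR-1290 were identical at 16 of 17 aligned bases and differed by G15U, counted along miR-1246. Their shared run of 12 bases, in capitals below, starts at the first base of miR-1290 and at the third of miR-1246, which gives them different seeds. No other miRNA of the table shared a run of 12 bases with any of the 8 sequences.
miR-1246: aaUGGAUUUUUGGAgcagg
miR-1290: UGGAUUUUUGGAucaggga

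A second feature was the 3′ end. Among all 2370 mature sequences of the table, 45 or 1.90% ended in CCA and 6 or 0.253% ended in CACCA, searched on the miRNA strand only, with each CACCA ending also counted as CCA. The members with CACCA, in capitals below, make up 4 of those 6.
miR-7975: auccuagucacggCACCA
miR-7977: uucccagccaacgCACCA
miR-4454: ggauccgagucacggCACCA
miR-1260a: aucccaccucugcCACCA
MiR-1260b has the same letters 1 base before its end, and miR-1246, miR-1290 and miR-5100 do not end in CCA. The letters alone do not show which RNA a probe bound. On the array, 42 miRNAs with a known sequence ended in CCA. Of the 39 that were not members, 26 were called detected, with a median total gene signal of 15.7 and a highest of 339 ± 24.03 (error from the scanner software) for miR-4261. Of those 39, the 2 that ended in CACCA were detected as well, the brighter being miR-4252 at 141 ± 10.1. Total gene signals are in scanner units throughout. MiR-7975, miR-7977 and miR-1260a were the only CCA miRNAs of the array above 339, and their signal had helped to choose them as members.

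The members were short. Of the 7 with a sequence, 6 had 19 bases or fewer, against 9.21% of the 2248 array miRNAs with a sequence. MiR-7975, miR-7977 and miR-1260a had 18 bases, miR-1260b, miR-1246 and miR-1290 had 19 and miR-5100 had 22, the median of the array. Of the other 201 miRNAs of 19 bases or fewer, 50.2% were detected, with a median signal of 16.5, and 2 of them reached 1000. Of the 2040 other miRNAs over 19 bases, 43.3% were detected, with a median of 11.96. The part of length in the signals was not tested. GC content ran from 42.1% for miR-1246 and miR-1290 to 61.1% for miR-7977 and miR-1260a, with a median of 57.9%, against 52.2% over the other miRNAs.

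The annotated loci lie on different chromosomes. On GRCh38.p14 the mature sequences are at chr19:55123225-55123242 on the minus strand for miR-7975 and chr3:176515103-176515120 on the plus strand for miR-7977. MiR-1260a is at chr14:77266231-77266248 on the plus strand, within the span of NGB, which encodes neuroglobin. MiR-1260b is at chr11:96341447-96341465 on the plus strand, within MAML2, a coactivator gene of Notch signalling. MiR-1246 is at chr2:176601024-176601042 on the minus strand, and no other gene of the RefSeq table spans it. MiR-1290 is at chr1:18897078-18897096 on the minus strand, within ALDH4A1, a gene of mitochondrial proline breakdown. MiR-5100 is at chr10:42997630-42997651 on the plus strand, again with no other gene across it. No tRNA or snRNA gene of that table lay within 10 kb of any of these 7 loci or of miR-4454. The table held 465 tRNA and 156 snRNA genes, and the share over all miRNAs was not computed. A piece of such an RNA can come from a gene elsewhere, so this does not test the origin of the members. A hairpin sequence was held for 5 members. The hairpin of miR-7977 had 49 bases, with 0 bases before the mature sequence, while 0.628% of 1434 hairpins were that short or shorter and 13.3% of 2108 mature sequences lay at an end of their hairpin. The other 4 hairpins had 73 bases for miR-1246 and miR-1260a, 89 for miR-1260b and 119 for miR-5100, with at least 9 bases on each side.

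The listed markers of the labelled tissue stood above the listed markers of other tissues. All 8 epithelial and intestinal markers, such as the miR-200 family and miR-192-5p, were called detected, at 319 to 9249, while 4 of 12 markers of muscle, liver, nerve, blood, vessel and stroma were, at 21.5 to 123. The 4 detected were miR-126-3p of vessel at 123, miR-223-3p and miR-451a of blood at 25.4 and 21.5, and miR-9-5p of nerve at 22.1. MiR-1-3p and miR-133a-3p of muscle and miR-122-5p of liver were among those not detected. Of 53144 spots, 50980 belonged to miRNA probes. The background-subtracted signal of negative control spots had a 99th percentile of 16.1, which is not on the scale of total gene signals.

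All 8 members were called detected by the scanner software, as were 44.4% of the 2549 miRNAs. Every one of their 160 spots was well above background, none was saturated, and 1 spot, of miR-5100, was an outlier and left out. MiR-7975 at 43459 ± 3078 and miR-7977 at 40694 ± 2880 (error from the scanner software) took ranks 1 and 2 among all miRNAs. MiR-5100 at 9618 ± 829, miR-4286 at 7089 ± 623 and miR-1260a at 6054 ± 511 took ranks 12, 19 and 23. MiR-1260b followed at 1816 ± 149 and rank 48. The pair with the shared 12-base run came last, with miR-1246 at 564 ± 48.7 and rank 84 and miR-1290 at 129 ± 11.3 and rank 183. Signal depends on the probe as well as on the RNA, so these ranks order signals and not amounts of RNA.

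Few neighbours in this order were further apart than their combined error from the scanner software. That error was 7.08% to 8.79% of the signal of each member, and the scatter of replicate spots was not used here. Neighbours in a dense order of signals lie close by construction. Gaps within an error of this size were therefore likely in advance and are a description. MiR-7975 and miR-7977 differed by less than their combined error. The gap below miR-7977, to miR-10a-5p at 26585 ± 1894, exceeded it. For each of the other 6 members, the miRNA just above and the one just below lay within the combined error. For miR-5100 these were miR-29a-3p at 10166 ± 723 and miR-200b-3p at 9249 ± 657, and for miR-4286 they were miR-29c-3p at 7126 ± 505 and let-7d-5p at 6417 ± 529. MiR-1260a lay between miR-200a-3p and miR-23a-3p, miR-1260b between miR-494-3p and miR-196b-5p, miR-1246 between miR-365a-3p and miR-34a-5p, and miR-1290 between miR-5581-5p and miR-6834-3p. Of these neighbours, miR-200a-3p and miR-200b-3p belong to the epithelial miR-200 family.

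**Figure D1:**
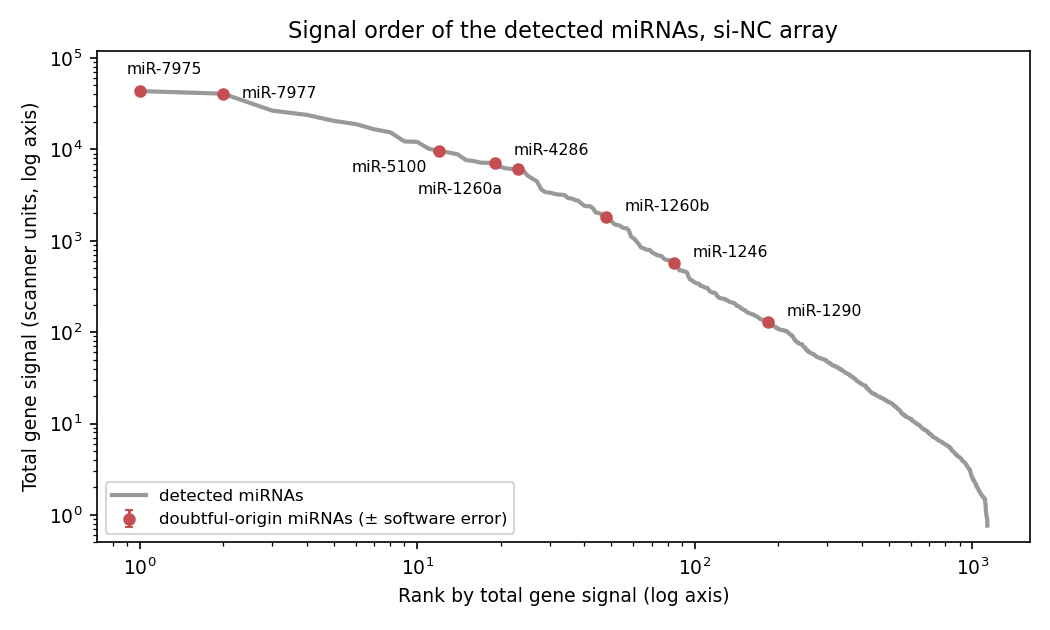
Total gene signal (scanner units, log axis) of the detected miRNAs against rank (log axis), with the 8 measured members as red points and the error of the scanner software as bars, which are mostly smaller than the points. MiR-7975 and miR-7977 hold ranks 1 and 2, and miR-1290 lies at rank 183.

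The share of the array signal was asked next. The 8 members held 22.6% ± 0.904 (error propagated from the scanner software) of the summed total gene signal of the 1133 detected miRNAs. MiR-7975 alone held 8.98% ± 0.636 and miR-7977 8.41% ± 0.595, together 17.4%. MiR-5100 held 1.99% ± 0.171, miR-4286 1.47% ± 0.129 and miR-1260a 1.25% ± 0.106. The shares of miR-1260b, miR-1246 and miR-1290 were 0.375%, 0.117% and 0.0266%. The sum is thus carried by miR-7975 and miR-7977, and without them the remaining 6 held 5.22%. For scale, a list of 12 well established miRNAs, among them miR-21-5p, let-7a-5p and miR-29b-3p, held 24.03%. These were listed as bright in epithelial lines, with earlier results of these data known, and are not a neutral yardstick.

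**Figure D2:**
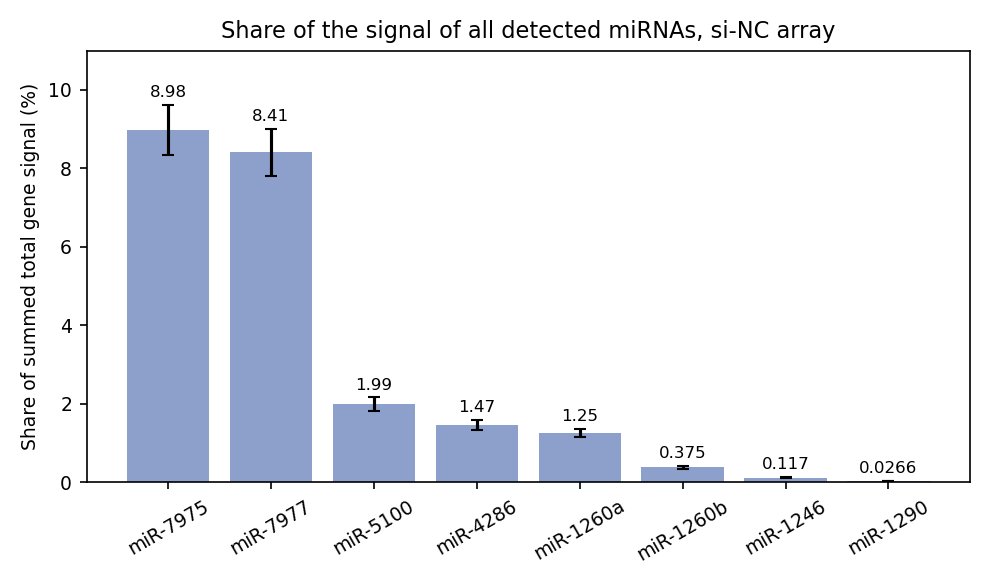
Share of the summed total gene signal of all detected miRNAs held by each member (percent, linear axis from 0), with the error of the scanner software as bars. The bars of miR-7975 and miR-7977 reach 8.98% and 8.41%, and no other member exceeds 1.99%.

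All 8 members are named without a 5p or 3p arm, as miRNAs are when a single product of the hairpin was annotated. Of the 814 miRNAs named so, 328 or 40.3% were detected, against 805 of 1735 or 46.4% of those named with an arm. The 814 held 28.9% of the signal, and without the members the remaining 806 held 6.27%. Among the 25 highest total gene signals, 5 miRNAs carried no arm in their name and all 5 were members. Among the 50 highest there were 11 such miRNAs, of which 6 were members. Their signal had helped to choose the members, so these counts are a description.

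Each member was measured with 2 probes of 10 spots each, which allowed the agreement of probes to be read. For miR-7975 the dimmer probe ran from 103644 through a median of 117142 to 124537 (background-subtracted signal, 10 spots) and the brighter from 113316 through 121914 to 133513. For miR-7977 the dimmer ran from 103531 through 110696 to 117490 and the brighter from 105869 through 113849 to 123136. In both miRNAs the spots of the probe pair overlapped. The log2 difference, brighter minus dimmer, was 0.073 ± 0.035 (SE over replicate spots) for miR-7975 and 0.028 ± 0.028 for miR-7977.

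The other 6 members differed from this pattern, with no overlap between the spots of their probes. For miR-5100 the dimmer probe ran from 7315 through 8007 to 8329.6 over 9 spots and the brighter from 42232 through 44607 to 46277 over 10. MiR-4286 gave 4783 to 5491 with a median of 5089.7 on the dimmer probe and 32460.2 to 35436 with a median of 33583 on the brighter. The log2 differences were 2.48 ± 0.02 for miR-5100 and 2.73 ± 0.03 for miR-4286, or 5.58-fold and 6.61-fold.

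The miR-1260 pair, which shares a seed and all but 1 of 18 aligned bases, had a like gap in each miRNA. MiR-1260a ran from 5212 through 5927 to 6358 on the dimmer probe and from 23775 through 27492 to 30942 on the brighter, a log2 difference of 2.22 ± 0.05 or 4.67-fold. MiR-1260b ran from 1857 through 2121 to 2235 on the dimmer probe and from 6994 through 8044 to 8236 on the brighter, a difference of 1.92 ± 0.04 or 3.78-fold.

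MiR-1246 and miR-1290, which share that run, also had probes far apart. MiR-1246 ran from 430.5 through 460.2 to 521 on the dimmer probe and from 2355 through 2575 to 2897 on the brighter, a log2 difference of 2.49 ± 0.04 or 5.63-fold. MiR-1290 ran from 88.1 through 97.8 to 111 on the dimmer probe and from 584 through 603 to 634 on the brighter, a difference of 2.62 ± 0.03 or 6.14-fold. Even the dimmer probe of miR-1290, the lowest of the 16, had every spot above the 99th percentile of the negative control spots.

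**Figure D3:**
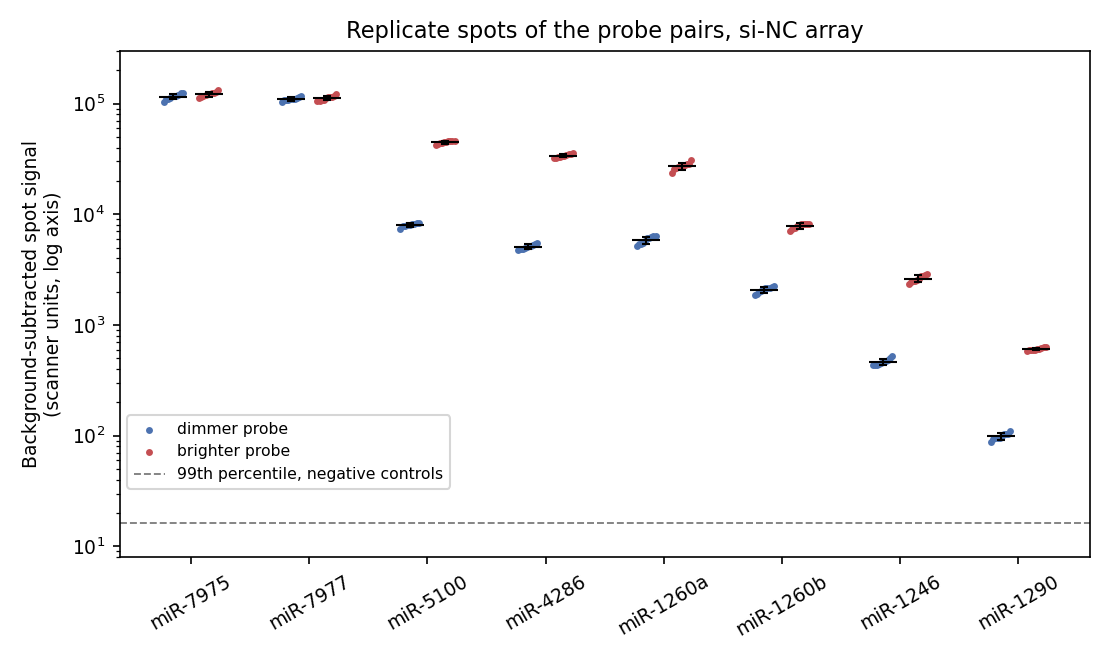
Background-subtracted signal of each replicate spot (scanner units, log axis) for the dimmer (blue) and the brighter (red) probe of each member, with the mean and SD as black bars and the 99th percentile of the negative control spots as a dashed line at 16.1. The probe pairs of miR-7975 and miR-7977 overlap, and those of the other 6 members are 3.78-fold to 6.61-fold apart.

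A log2 difference of 1 or more was thus found in 6 of 8 members. Over all 800 detected miRNAs with 2 or more measurable probes it was found in 19.2%, and the median difference was 0.35, against 2.35 over the members. More probes leave more room for a gap, and among the 682 with exactly 2 probes, as the members have, it was found in 14.4%, with a median of 0.32. Among the 57 miRNAs with 2 probes and a total gene signal of 1000 and over, 17.5% reached 1, or 11.8% without the members. This set of 57 holds 6 members, of which 4 had a difference of 1.92 or more, the lowest of the 6 members with a gap. Of its 51 other miRNAs, 3 had one. They were miR-4284 at 2.78 ± 0.04, let-7c-5p at 2.07 ± 0.01 and let-7d-5p at 1.99 ± 0.02, and are named because their values were seen. MiR-1246 and miR-1290 are dimmer than that limit. Over any signal, 31 of the 674 other miRNAs with exactly 2 probes, or 4.60%, reached 1.92, and 12 of them exceeded every member. These include conventional miRNAs, likewise named after their values were seen, such as miR-222-3p at 4.37 ± 0.02 and let-7e-5p at 3.31 ± 0.06. The 12 established miRNAs, a list without let-7c-5p, let-7d-5p and let-7e-5p, had a median difference of 0.33 and a highest of 1.02, for miR-200c-3p. Large differences held a somewhat larger share of the short miRNAs, on small counts and without a test. Of 73 other detected miRNAs with 19 bases or fewer and 2 probes, 13 or 17.8% reached 1 and 7 or 9.59% reached 1.92. Of 516 longer ones, 65 or 12.6% and 21 or 4.07% did. The medians were close, at 0.34 for the short and 0.31 for the longer. Of the 7 members with a sequence, 6 are short. These include miR-7975 and miR-7977, with 18 bases and the smallest gaps, and 4 with gaps of 1.92 to 2.62. MiR-5100, with 22 bases, had a gap of 2.48. The part of length was not tested.

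**Figure D4:**
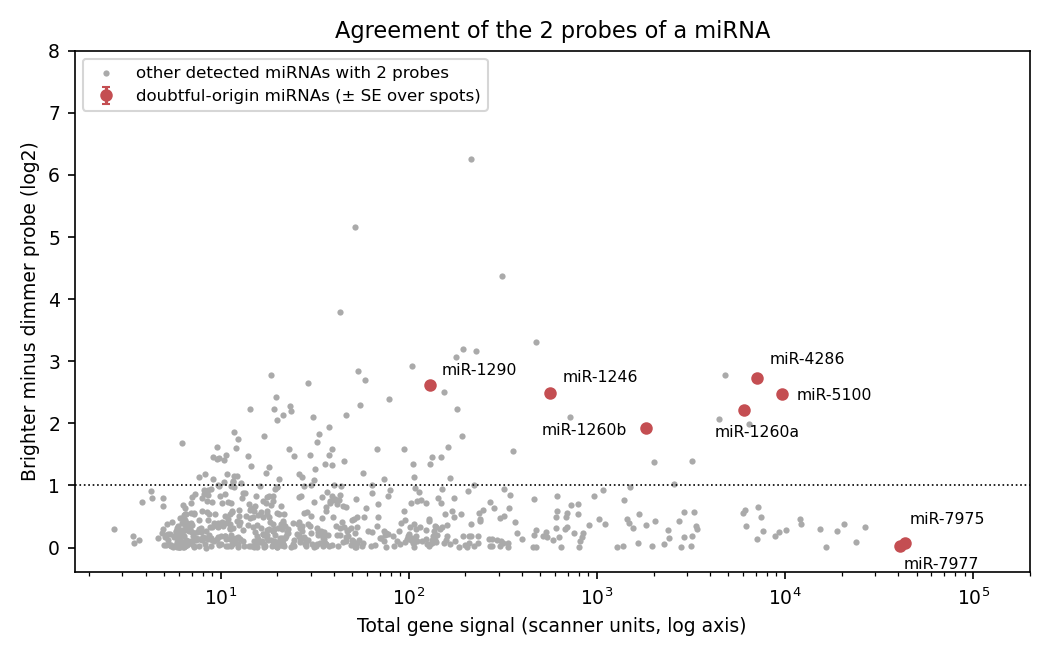
Log2 difference between the brighter and the dimmer probe against total gene signal (scanner units, log axis) for detected miRNAs with 2 measurable probes, members in red with the SE over replicate spots. MiR-7975 and miR-7977 lie near 0, and the other 6 members lie between 1.92 and 2.73, above the dotted line at 1.

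The brighter probe was the one with the higher catalogue number in 8 of 8 members. The same held for 64.7% of 682 detected miRNAs with 2 probes and for 75.5% of the 98 among them with a difference of 1 or more. Probe sequences and lengths were not used here. As the total gene signal adds the probes, the dimmer probe supplied 48.7% and 49.5% of the signal of miR-7975 and miR-7977, and between 13.1% and 20.9% for the other 6.

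The scatter of replicate spots was small. Over the 16 probes of the members the coefficient of variation (CV, SD over mean) had a median of 5.28% and ran from 2.71% to 7.63%. The 733 other probes in the same range of mean signal had a median of 4.93% with quartiles of 3.55% and 7.19%. The gaps between the probes of the 6 members are thus many times the scatter of their spots, while the probes of miR-7975 and miR-7977, 1.05-fold and 1.02-fold apart, differ by about as much as their spots or less.

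A list of other annotated miRNAs, held to overlap ribosomal or mitochondrial RNA genes, was set beside the members. It was written by name with earlier results of these data known, and the overlap was not checked here. No search for further miRNAs of this kind was made, so the list does not stand for all of them. Of its 9 miRNAs 7 were called detected, and the highest were miR-1973 at 155 ± 13.4 and miR-6087 at 151 ± 11.2, below all members but miR-1290. The list held 0.0952% of the array signal. Its probes also disagreed in part, with a log2 difference of 1 or more in 3 of 7, led by miR-1973 at 2.50 ± 0.05. MiR-3687 and miR-4461 were not detected.

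The deposited table of normalized log2 values kept the order of the 8 members. They stood at 15.42 for miR-7975, 15.24 for miR-7977, 12.95 for miR-5100, 12.39 for miR-4286, 12.17 for miR-1260a, 10.48 for miR-1260b, 8.9998 for miR-1246 and 7.02 for miR-1290. Against the log2 of the total gene signal, the deposited value of miR-4286 was lower by the most, at -0.40, while that of miR-7975 was higher by 0.015. Each member held the same rank in both scales, which normalization within 1 array gives by construction.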

How the data were processed

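MiRNA levels were measured in 1 sample of DLD-1 cells with a control siRNA on a single-colour Agilent array. Per the labels, T4 RNA ligase joined Cyanine 3-pCp to the RNA. This ligase acts on 3′ ends and does not select RNA cut from hairpins. The study's methods give a cDNA kit instead, and which was used is not settled. The deposited scanner file (Feature Extraction 11.0.1.1, array designed on hg19) holds background-subtracted intensity per spot, not normalized between arrays. The authors also deposited log2 values, quantile normalized in GeneSpring, whose floor of 2.32 was read from the values. Other columns of samples numbered 0.

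Detection was the flag of the software. Outlier spots (4.51% of miRNA spots) were left out of spot and probe values. Probes with under 50% of spots well above background were not compared. Probe differences are differences of mean log2 spot signal. Of the array miRNAs, 2248 (88.2%) matched a RefSeq mature sequence by name. The members, the lists and the naming rule were chosen with earlier results of these data known. The rule names the 9 members, their neighbours in signal, miRNAs that share an ending, a run of 12 bases or a seed with them, and 2 lists. Alternatives were other summaries of spots, normexp (offset 50, on the median spot signal), no filter on dim probes, outlier spots kept, other detection rules and the deposited values. Values were taken as unchanged within the error of the software, the SD over spots or a 95% Wilson interval, and counts within 1.5 times. The calculations were tested on simulated data. Calculations ran in Python 3.11.15 (pandas 2.3.3, numpy 2.4.6, scipy 1.17.1), figures in matplotlib 3.10.9 and normexp in limma 3.58.1 on R 4.3.3. The single array limits the precision.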

Additional observations from a re-analysis of the deposited data

How the results depend on the processing

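Over the results, 94 alternative values were computed, of which 37 moved beyond their limits. The count of 8 detected members and the median CV of the members stayed within limits under every alternative tried. The median total gene signal, 6571, became 30461 as the mean of the brightest probe, which is on another scale by construction. The median rank of the members, 21, was 14 by the brightest probe, with outlier spots left out or kept, and 24.5 with normexp. MiR-7975 and miR-7977 held ranks 1 and 2 under all 5 alternatives, while miR-1290 ranged from 150 to 215. Of these alternatives, the deposited values keep the order by construction. The mean signal over all probes gave every member the same rank as the total gene signal. That total adds the same probes on another scale, so this is no independent check either. The share of the array signal, 22.6%, was 21.2% with normexp, 25.1% with deposited values on the linear scale and 5.22% without miR-7975 and miR-7977. The median probe difference, 2.35, was 2.16 with normexp. Its offset raises each signal and so lowers the gap of dim probes most (2.09 for miR-1290). The share of miRNAs without an arm that were detected, 40.3%, was 35.1% where at least 50% of the spots of 1 probe had to be well above background. Apart from the offset and the change of scale, the cause was not tested. No paired analysis was possible because 1 array was used.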

Other observations

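Other bright miRNAs named without an arm were looked at after their values had been seen. MiR-4284 had a total gene signal of 4779 ± 422 and miR-7641 of 3637 ± 231, at ranks 26 and 28, with probe differences of 2.78 ± 0.04 and 1.99 ± 0.07 on the log2 scale. The value of miR-7641 is between the brightest and the dimmest of 3 probes. MiR-107, a miRNA of a PANK intron, stood at 3364 ± 240, and miR-429 of the epithelial miR-200 family at 2801 ± 198, with differences of 0.35 ± 0.03 and 0.014 ± 0.02. MiR-6127 stood at 2263 ± 160.2 with a difference of 0.058 ± 0.03. Names without an arm thus covered both large and small probe differences.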
